A study of Drosophila melanogaster with 6 samples.

Results

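Mediator and TFIID are the large protein assemblies that sit between sequence-specific transcription factors and RNA polymerase II. Mediator is built from a head, a middle and a tail module held on the scaffold protein MED14, and it relays the state of bound activators to the polymerase. TFIID consists of the TATA-binding protein and its associated factors, the Tafs, which recognise the core promoter and nucleate the preinitiation complex. Some Tafs are shared with SAGA, a histone acetyltransferase complex, and in the fly several Tafs have testis-specific relatives.

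The genes described here were those whose FlyBase symbol begins with MED or Taf followed by a digit. They numbered 40 of 17526 genes listed in the tables, 25 for Mediator and 15 for Taf proteins, all found by name. The naming rule uses no measured values, but it was chosen with earlier results of these data known. The RNA came from wing imaginal discs of Drosophila melanogaster, the larval sheets of epithelium that form the adult wing. The 3 control libraries carried the driver MS1096-Gal4 alone. The 3 dNKAP RNAi libraries carried the same driver with an RNAi transgene against dNKAP (CG6066), the fly relative of NKAP, a nuclear protein studied in mammals in transcription and RNA splicing. MS1096-Gal4 is known to be active mainly in the wing pouch and not in every disc cell, so each dNKAP RNAi library holds RNA from cells with and without the transgene. The labels give no age, and they do not say whether same-group libraries came from separate crosses, so each p-value speaks of the spread among these libraries, which may be technical. In such tissue RNA, fewer cells of a type and less RNA per cell cannot be told apart.

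The deposited values were FPKM (fragments mapped to a transcript, scaled to its length and to the size of the library), and a gene's level is the sum over its transcripts. The sequenced bases behind the listed transcripts came to 4.81, 6.44 and 4.71 gigabases in the controls and 4.14, 4.38 and 4.55 with the RNAi. Every RNAi library was thus shallower than every control. The part of depth in entries listed at 0 with the RNAi alone was not tested. dNKAP stood at 23.6, 22.8 and 26.6 FPKM in the controls and at 13.96, 13.3 and 11.4 FPKM with the RNAi, which is -0.90 on the log2 scale with an SE of 0.11 (limma adjusted p = 0.0146); without control replicate 1, control replicate 3 or RNAi replicate 2 that p was 0.0553, 0.0504 and 0.0584. The discs expressed the wing genes vg, at 57.2 to 134 FPKM, and sd, at 86.9 to 101 FPKM, in every library, while en was listed at 0 in all 6. The sum of 5 fat body markers was 41.8, 13.1 and 0.991 FPKM in the controls and 160, 152 and 570 FPKM with the RNAi, carried by Fbp1 and Lsp1alpha, with Lsp1beta, Lsp2 and Fbp2 at 0; its part in the results below was not tested.

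The Mediator and Taf genes moved little between control and dNKAP RNAi discs. Of the 35 genes that averaged 1 FPKM or more, none was called higher and 1, Taf10, was called lower (limma on log2(FPKM + 0.5), Benjamini-Hochberg adjusted p under 0.05 over all 6506 tested genes). Over all tested genes, 3.72% were called in either direction, 3.21% higher and 0.507% lower. The count among the Mediator and Taf genes, 1 of 35, is near that background and is not by itself a result about them. At an unadjusted p under 0.05 there were 4 of 35, beside 19.0% of all tested genes. The 4 were the Taf genes Taf10, Taf1, Taf13 and Taf12L.

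The size of the changes was narrow. The median log2 change was -0.04, against 0.03 over all tested genes, and the median size of the change without its sign was 0.08, against 0.20. The 95% interval of the change lay within 1.5-fold in either direction for 25 of the 35 genes (71.4%), and for 48.6% of all tested genes. These genes are also more abundant than most: the 33 above 0 in every library had a median level of 38.4 FPKM, against 25.6 FPKM for the 5511 tested genes above 0 in every library, so the narrower intervals cannot be read apart from level. Their median coefficient of variation within groups was 7.29%, against 10.59% for those 5511 genes.

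**Figure D1:**
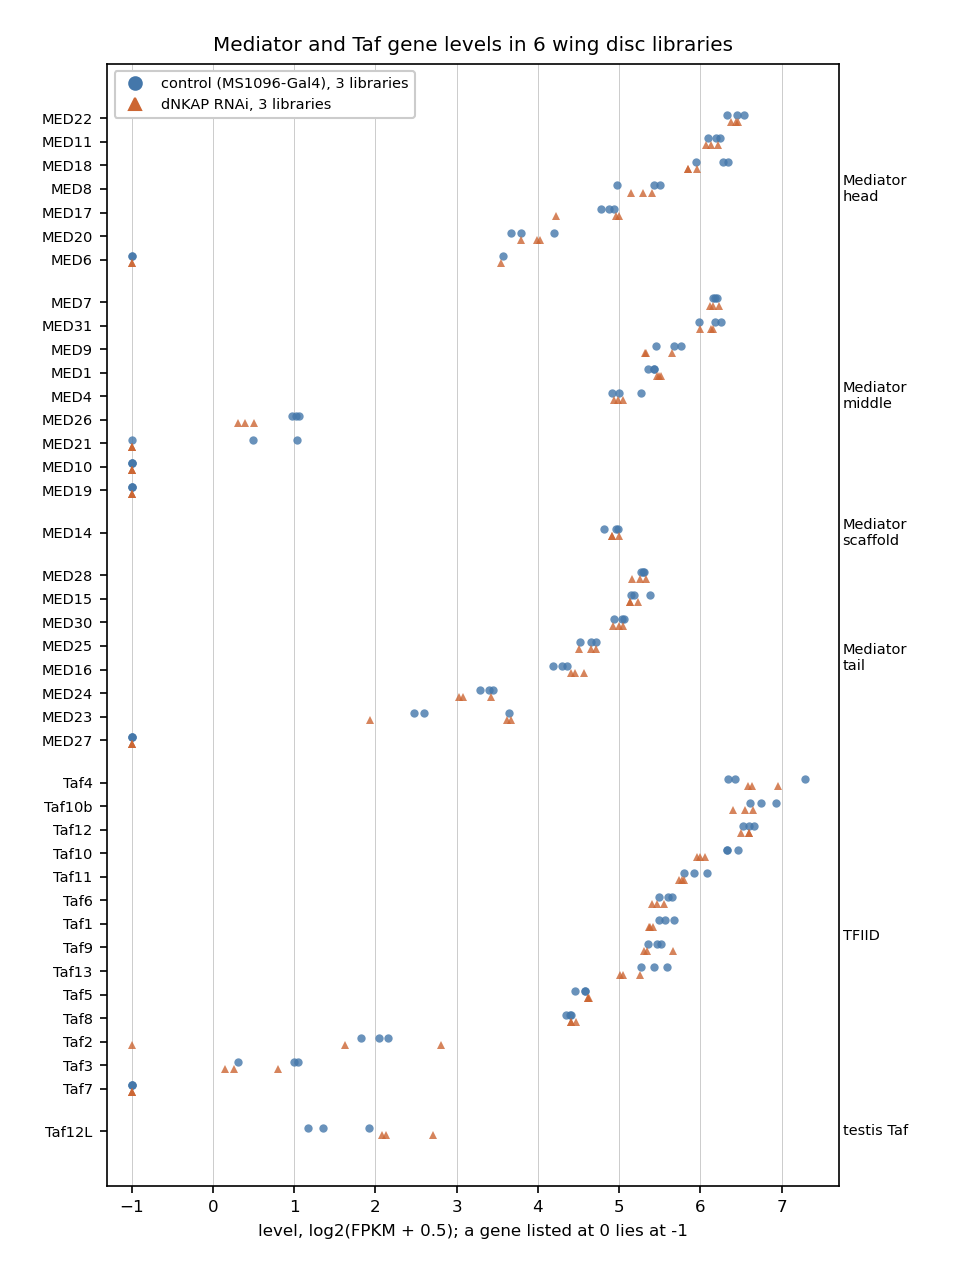
Levels of the 40 Mediator and Taf genes in each of 3 control (circles) and 3 dNKAP RNAi (triangles) libraries, as log2(FPKM + 0.5), grouped by module and ordered by mean level. The circles and triangles of most genes overlap. Taf10, Taf13, Taf1 and MED26 lie lower with the RNAi, and MED1, MED16, Taf5 and Taf12L higher. MED10, MED19, MED27 and Taf7 lie at -1 (listed at 0) throughout.

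The summed Mediator level was 793, 747 and 813 FPKM in the controls and 752, 764 and 750 FPKM with the RNAi, and these ranges overlapped. The summed Taf level was 672, 720 and 667 FPKM in the controls and 649.8, 625 and 604 FPKM with the RNAi, so every RNAi library lay below every control. The sum over all tested genes was also lower in every RNAi library, at 549199 to 558862 FPKM in the controls and 544512 to 548003 FPKM with the RNAi. No gene of the 21 tested for Mediator was called, and their median log2 change was -0.02. Of the 14 tested Taf genes 1 was called, and their median was -0.13. The log2 change was below 0 for 10 of 14, beside 2964 of all 6506 tested genes. The 10 include Taf2, and the 21 tested Mediator genes include MED6 and MED23. The group means of Taf2, MED6 and MED23 cannot be read as gene levels, as described below.

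Taf10 encodes a small histone-fold protein, whose mammalian counterpart pairs with Taf8 or Taf3 in TFIID. The fly gene lies on chromosome 2L at positions 2767890 to 2768612 of the dm6 build, on the plus strand. Taf10 was at 79.8, 79.7 and 87.9 FPKM in the controls and at 61.9, 66.3 and 63.5 FPKM with the RNAi. Every RNAi library was below every control. Its mean went from 82.5 ± 4.71 to 63.9 ± 2.23 FPKM (SD, n = 3 each), or by -0.36 in log2 units (SE 0.06; limma adjusted p = 0.0467). This call stood just inside the threshold: without any 1 of the 6 libraries the limma adjusted p lay between 0.0942 and 0.145 while the log2 change stayed between -0.32 and -0.39.

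Taf10b, its paralog and a known subunit of the fly SAGA complex, starts on the opposite strand at chromosome 2L positions 2767286 to 2767845, and 44 bases separate the gene models. Taf10b was at 121.8, 106.5 and 96.8 FPKM in the controls and at 92.8, 100.05 and 83.9 FPKM with the RNAi. Its groups overlapped through RNAi replicate 2 and control replicate 3, and the log2 change was -0.23 (SE 0.11; limma adjusted p = 0.334). Exons of colt, a mitochondrial carrier gene, overlap those of Taf10 on the other strand, and colt averaged 61.3 FPKM in the controls and 51.8 FPKM with the RNAi (log2 change -0.24, limma adjusted p = 0.298). Whether the library kit kept strand is not given in the sources used here, so reads in that overlap cannot be divided between Taf10 and colt. Exons of 21 of the 40 genes overlap another annotated feature, in most cases on the other strand, and their reads may be shared in the same way; Taf13 (with Pyroxd1) and Taf1 (with CG1307, listed at 0) are among them.

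By the mammalian pairing, Taf8 and Taf3 can be set beside Taf10, and which of Taf10 and Taf10b each of them binds in the fly was not examined here. Taf8 held at 20.5, 19.9 and 20.8 FPKM in the controls and 21.6, 20.8 and 20.8 FPKM with the RNAi. These levels were nearly constant, with overlapping groups and a log2 change of 0.05 whose 95% interval ran from -0.10 to 0.19 (limma adjusted p = 0.680). Taf3, a histone H3 reader in mammals and the least abundant tested Taf, was at 1.49, 1.57 and 0.735 FPKM in the controls and 0.609, 1.24 and 0.700 FPKM with the RNAi. Its values scattered too widely in both groups to separate them, at -0.38 in log2 units (SE 0.39; limma adjusted p = 0.614).

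Taf13 and Taf11 form the pair that contacts the TATA-binding protein. Taf13 was at 42.5, 38.1 and 47.8 FPKM in the controls and at 37.8, 32.6 and 31.6 FPKM with the RNAi. The groups did not overlap, but the nearest values, in control replicate 2 and RNAi replicate 1, were close. The log2 change was -0.33 (SE 0.11) and did not pass the threshold (limma adjusted p = 0.220). Taf11 averaged 60.8 ± 6.01 and 54.1 ± 1.196 FPKM (SD, n = 3 each), a log2 change of -0.16 with overlapping groups (limma adjusted p = 0.357).

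Taf1, the largest Taf and the scaffold of TFIID with a pair of bromodomains, was at 46.6, 44.7 and 50.7 FPKM in the controls and at 41.0, 42.2 and 40.9 FPKM with the RNAi. All RNAi values lay below all control values, by a small step. The log2 change was -0.19 (SE 0.06, limma adjusted p = 0.213). The histone-fold pair Taf6 and Taf9 averaged 47.4 and 44.1 FPKM for Taf6 (log2 change -0.10, limma adjusted p = 0.484) and 43.1 and 43.0 FPKM for Taf9 (log2 change -0.01, limma adjusted p = 0.979). Taf5, a WD-repeat protein at the core of TFIID, was at 23.4, 21.4 and 23.4 FPKM in the controls and at 24.3, 23.98 and 23.97 FPKM with the RNAi. It was higher in every RNAi library by less than 3 FPKM, a log2 change of 0.08 (limma adjusted p = 0.534).

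Groups that did not overlap were common in these data, at 17.3% of all tested genes higher and 11.2% lower with the RNAi. Among the 35 Mediator and Taf genes there were 4 higher (MED1, MED16, Taf5 and Taf12L) and 4 lower (Taf10, Taf1, Taf13 and MED26).

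**Figure D2:**
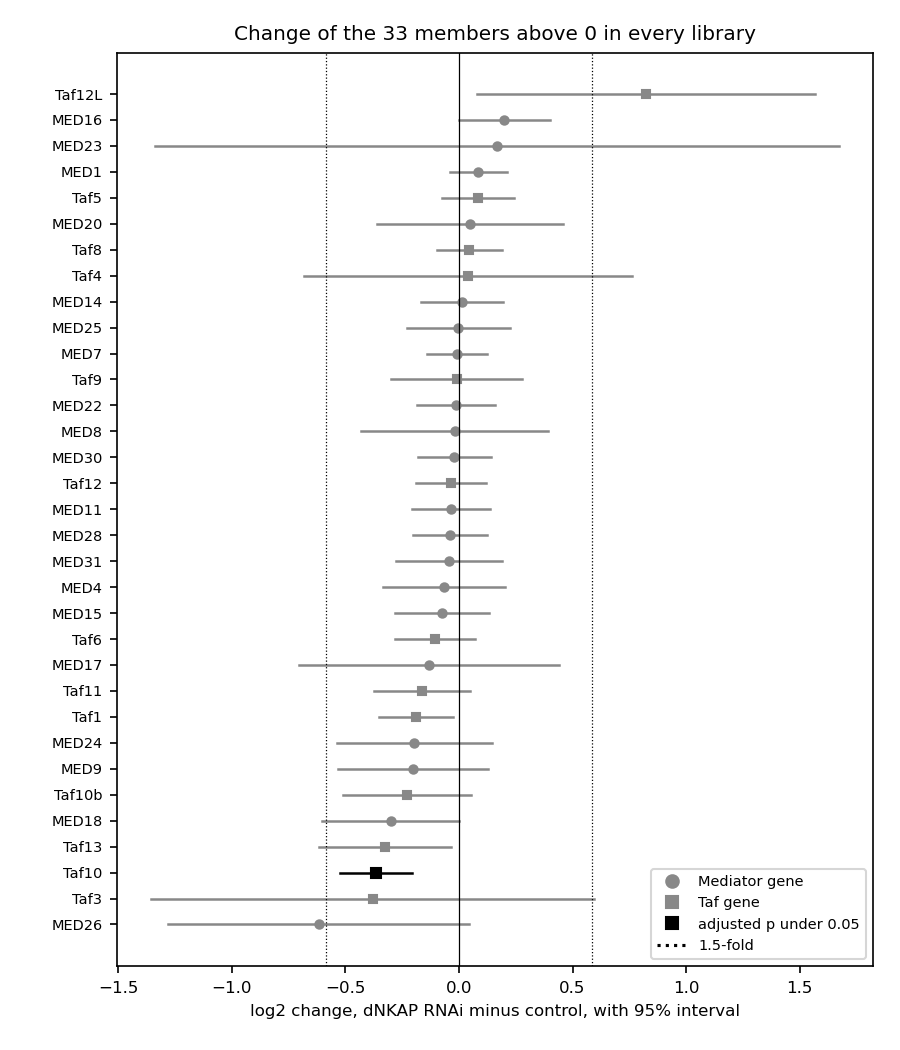
Log2 change (dNKAP RNAi minus control) with its 95% interval for the 33 Mediator (circles) and Taf (squares) genes above 0 in every library; dotted lines mark 1.5-fold. Only Taf10, in black, had an adjusted p under 0.05, and the widest interval was that of MED23.

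Taf12L (also called rye) is the testis relative of Taf12 and lies on chromosome 2L at positions 4700835 to 4701485. It was at 2.06, 1.75 and 3.30 FPKM in the controls and at 3.74, 3.87 and 6.07 FPKM with the RNAi. The groups did not overlap, and RNAi replicate 3 was the highest library. On the log2(FPKM + 0.5) scale the change was 0.82 (SE 0.29), the largest upward value among the 33 genes above 0 in every library, but it did not pass (limma adjusted p = 0.225). Of the other testis Tafs, can, mia and nht were listed at 0 in all 6 libraries, and sa did not exceed 0.19 FPKM. The gene span of Taf12L lies inside that of dcma on the other strand, which did not exceed 0.061 FPKM.

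**Figure D3:**
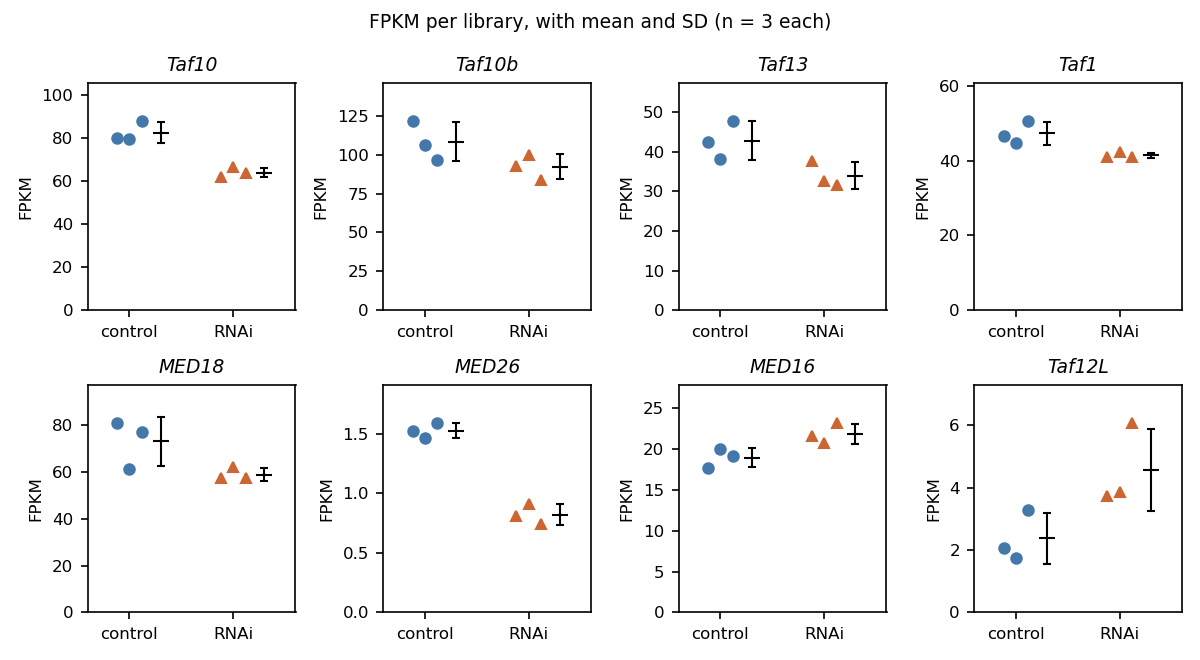
FPKM of 8 Mediator and Taf genes in each control (circles) and dNKAP RNAi (triangles) library, with the mean and SD of each group (n = 3); each axis starts at 0. Taf10 falls from 82.5 to 63.9 FPKM with no overlap, and the groups of Taf10b and MED18 overlap.

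Taf12 is the histone-fold partner of Taf4. The summed level of Taf12 was 100.99, 96.4 and 91.5 FPKM in the controls and 96.0, 89.6 and 96.3 FPKM with the RNAi. The groups overlapped, and their log2 difference was -0.03 (SE 0.06; limma adjusted p = 0.781). The listing of its transcripts nevertheless differed. Taf12-RB was listed at 8.26, 8.78 and 8.41 FPKM in the controls and at 0 in all 3 RNAi libraries, where the deposited upper bounds were 0.123, 0.115 and 0.111 FPKM. In the controls this transcript made up 8.18%, 9.11% and 9.19% of the gene's FPKM. The rest of the Taf12 signal came from Taf12-RD, at 72.7, 73.0 and 65.0 FPKM against 74.6, 72.8 and 82.4 FPKM, and from Taf12-RE, at 20.05, 14.6 and 18.1 FPKM against 21.5, 16.9 and 13.9 FPKM. Both of these overlapped between groups, and Taf12-RA was listed at 0 throughout.

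The Taf12 gene lies on the minus strand of chromosome 3R at positions 11678386 to 11679690. In the Ensembl annotation of dm6, Taf12-RB carries a second exon from base 293 to base 747 counted from the start site. Of this exon Taf12-RD keeps only bases 507 to 747, and Taf12-RE keeps those bases plus a short exon from base 293 to base 337. The stretch from base 338 to base 506, 169 bases at 3R positions 11679185 to 11679353, is therefore exonic in Taf12-RB and intronic in Taf12-RD and Taf12-RE. The annotated start codon of Taf12-RB lies in that stretch, at base 478, and that of Taf12-RD and Taf12-RE at base 586, so the coding length is 588 bases in Taf12-RB and 480 bases in Taf12-RD and Taf12-RE.

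Transcript usage, tested with limma's diffSplice over 1791 genes with at least 2 reference transcripts of mean 1 FPKM or more, was called in 41 genes (2.29%). Of 5 Mediator and Taf genes that could be tested, Taf12 was called (limma diffSplice adjusted p = 1.10e-06) and 4 were not. The call rests on Taf12-RB: with a minimum of 5 FPKM, which removes that transcript, the limma diffSplice adjusted p was 0.8995. No fold is given for Taf12-RB, since one group is listed at 0. The values of that group therefore show no spread among its libraries, which makes the p-value smaller. An exact 0 is also a frequent entry for minor transcripts. Of the 4297 transcripts in this test, 2212 were at 0 in at least 1 library, 28 were above 0 in all 3 controls and at 0 in all 3 RNAi libraries, and 38 showed the opposite. In the controls Taf12-RB was listed at 11%, 12% and 13% of the major isoform of its locus, and rows above 0 were much scarcer just below that level, with 1147 rows at 10 to 14% and 311 at 5 to 9% over the 6 tables. Whether a limit on which transcripts are listed, or the lower depth of the RNAi libraries, takes part in the zeros of Taf12-RB was not tested.

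**Figure D4:**
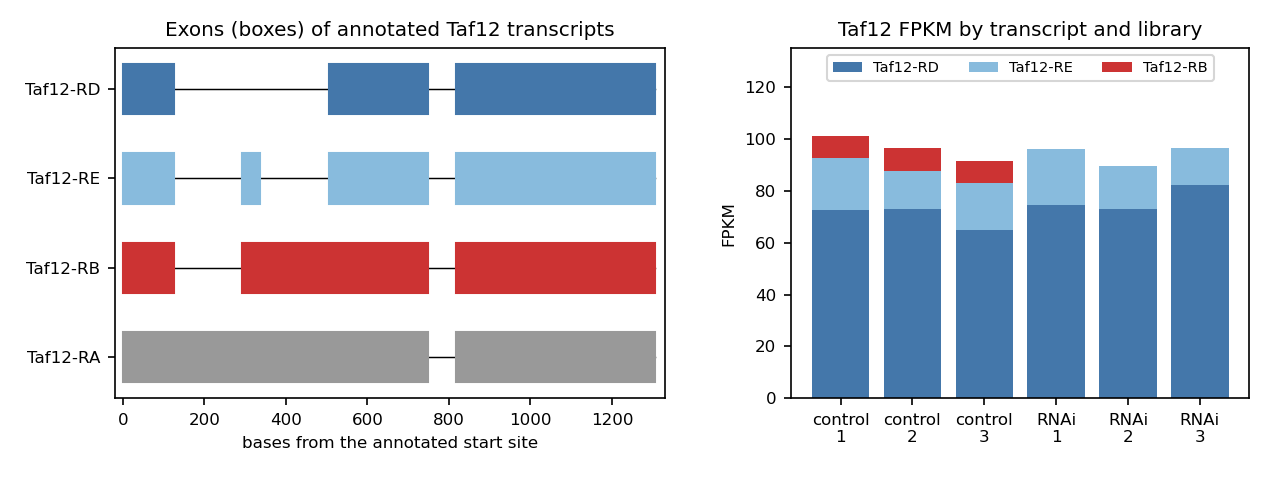
Left, exons (boxes) of the 4 annotated Taf12 transcripts in bases from the start site; right, stacked FPKM of the listed transcripts in each library. The Taf12-RB segment, between 8.26 and 8.78 FPKM, appears in the 3 controls and in none of the 3 RNAi libraries, while the summed height stays between 89.6 and 100.99 FPKM.

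The other genes tested for usage were MED1, Taf4, MED31 and MED14. MED1, in mammals the contact site for nuclear receptors, kept its summed level at 40.6, 42.5 and 42.5 FPKM in the controls and 43.7, 44.4 and 45.2 FPKM with the RNAi. Every RNAi value was higher, by a small amount (log2 change 0.08, SE 0.05, limma adjusted p = 0.421). The share of MED1-RC was 46.6%, 47.4% and 49.1% in the controls and 49.6%, 27.5% and 22.9% with the RNAi. RNAi replicates 2 and 3 were low and replicate 1 was like the controls, and usage of MED1 was not called (limma diffSplice adjusted p = 0.550). For Taf4, MED31 and MED14 the limma diffSplice adjusted p values were 0.758, 0.906 and 0.976.

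Taf4, a TFIID core subunit that activators bind, had the highest mean of the Taf genes over the 6 libraries, which rests on control replicate 2. It was at 85.2, 156.4 and 80.7 FPKM in the controls and at 124.1, 95.3 and 98.8 FPKM with the RNAi. In the controls alone Taf10b averaged more, at 108.4 FPKM; without control replicate 2 the means over the other 5 libraries were 96.8 FPKM for Taf4 and 99.1 FPKM for Taf10b. The Taf4 groups overlapped, at means of 107 ± 42.4 and 106 ± 15.7 FPKM (SD, n = 3 each; log2 change 0.04, limma adjusted p = 0.962). Between 37.1% and 100% of the Taf4 level in a library came from newly assembled isoforms rather than exact matches to the annotation.

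In the Mediator head, which binds the polymerase, MED22 was the most abundant Mediator gene, at 92.1, 79.9 and 86.7 FPKM in the controls and 85.95, 87.5 and 82.8 FPKM with the RNAi. Its groups overlapped and the log2 change was -0.01, with a 95% interval from -0.18 to 0.16 (limma adjusted p = 0.951). MED11, the neighbour of MED22 in the head, and MED8 changed by -0.04 and -0.02 on the log2 scale. MED20 was at 13.4, 12.2 and 17.8 FPKM in the controls and 15.4, 15.7 and 13.3 FPKM with the RNAi, overlapping throughout (log2 change 0.05, limma adjusted p = 0.898). MED17, the central head subunit, was at 18.2 FPKM in RNAi replicate 3 and between 27.0 and 31.4 FPKM in the other 5 libraries.

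MED18 forms a movable part of the head with MED20 and MED8. It was at 80.7, 61.1 and 77.0 FPKM in the controls and at 57.1, 61.9 and 57.1 FPKM with the RNAi. Control replicate 2 lay among the RNAi libraries, and the log2 change of -0.30 (SE 0.12) did not pass (limma adjusted p = 0.263). Pex5, whose exons overlap those of MED18 on the other strand, was listed at 0, 13.8 and 0 FPKM in the controls and at 13.999, 13.7 and 13.3 FPKM with the RNAi. The libraries in which Pex5 was listed at 0 were thus those with the highest MED18, and the part of this in the MED18 values was not tested. The middle module gene MED31 overlaps slx1 on the same strand, and slx1 was listed at 0, 7.01 and 0 FPKM in the controls and 8.02, 7.05 and 7.33 FPKM with the RNAi, beside MED31 at 75.95, 62.9 and 72.1 FPKM and 69.8, 63.4 and 70.9 FPKM.

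In the middle module, MED7, MED4 and MED9 were not called and had overlapping groups, with log2 changes of -0.01, -0.07 and -0.20. MED26, which in mammals links Mediator to elongation factors, lies on chromosome 4 at positions 778516 to 788978. It was at 1.53, 1.46 and 1.59 FPKM in the controls and at 0.811, 0.915 and 0.742 FPKM with the RNAi. The groups were well apart for so low a gene, with a log2 change of -0.62 (SE 0.26) on the log2(FPKM + 0.5) scale that did not pass (limma adjusted p = 0.289). With pseudocounts of 0.1 and 1 FPKM the log2 change of MED26 was -0.82 and -0.47, and no alternative gave it an adjusted p under 0.0805 by limma. Taf3 is the other gene of the set on chromosome 4, and MED26 and Taf3 were the lowest of the 33 genes above 0 in every library.

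In the tail, which activators contact, MED16 was at 17.7, 20.02 and 19.1 FPKM in the controls and at 21.5, 20.7 and 23.2 FPKM with the RNAi. All RNAi libraries were above all controls, at 0.20 in log2 units (SE 0.08; limma adjusted p = 0.264). MED15, needed for Dpp target genes in the fly wing, averaged 37.3 ± 3.31 and 35.3 ± 1.40 FPKM (SD, n = 3 each; log2 change -0.07, limma adjusted p = 0.643). MED24, MED25, MED28 and MED30 changed by between -0.20 and -0.0022 on the log2 scale, with overlapping groups and none called. The scaffold gene MED14 averaged 29.9 ± 1.92 and 30.2 ± 1.11 FPKM (SD, n = 3 each; log2 change 0.01, limma adjusted p = 0.936).

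Several low or zero entries were bound up with how transcripts were listed. MED10, MED19, MED27 and Taf7 were listed at 0 in all 6 libraries, with deposited upper bounds between 0.0329 and 0.239 FPKM. Since subunits that every cell uses are among them, only the listing is reported, not an absence of RNA. MED21 was listed at 0.905, 1.55 and 0 FPKM in the controls and at 0 in every RNAi library, and it fell under the minimum level for a test. Over the tested genes 995 (15.3%) were listed at 0 in at least 1 library.

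The tables also give each transcript as a percent of the most abundant isoform of its assembled locus, and for some genes no row of that locus reached 100%. MED6, a head subunit, had 11.4 FPKM in control replicate 2 and 11.2 FPKM in RNAi replicate 3, at 60% and 74% of a major isoform without a row, and at 0 in the other 4 libraries. Taf2, which binds the initiator element, was listed at 3.94, 3.63 and 3.04 FPKM in the controls and at 6.52, 0 and 2.60 FPKM with the RNAi, never above 55% of the major isoform. MED23, a tail subunit that in mammals receives Ras signals, was listed at 5.04, 12.05 and 5.54 FPKM in the controls and at 3.31, 11.8 and 12.2 FPKM with the RNAi. The libraries with a low MED23 value were those in which its row stood at 11 to 18% of the major isoform. In control replicate 2 and RNAi replicate 3 the row of MED23 stood at 31% and 35%. There the locus did have a row at 100%, but not one listed under MED23. Whether the major isoform of the locus belongs to MED23 was not tested. The limma adjusted p values of MED6, Taf2 and MED23 were 0.998, 0.655 and 0.905, and their group means cannot be read as gene levels. A locus without a row for its major isoform occurred in at least 1 library for 866 tested genes (13.3%).

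**Figure D5:**
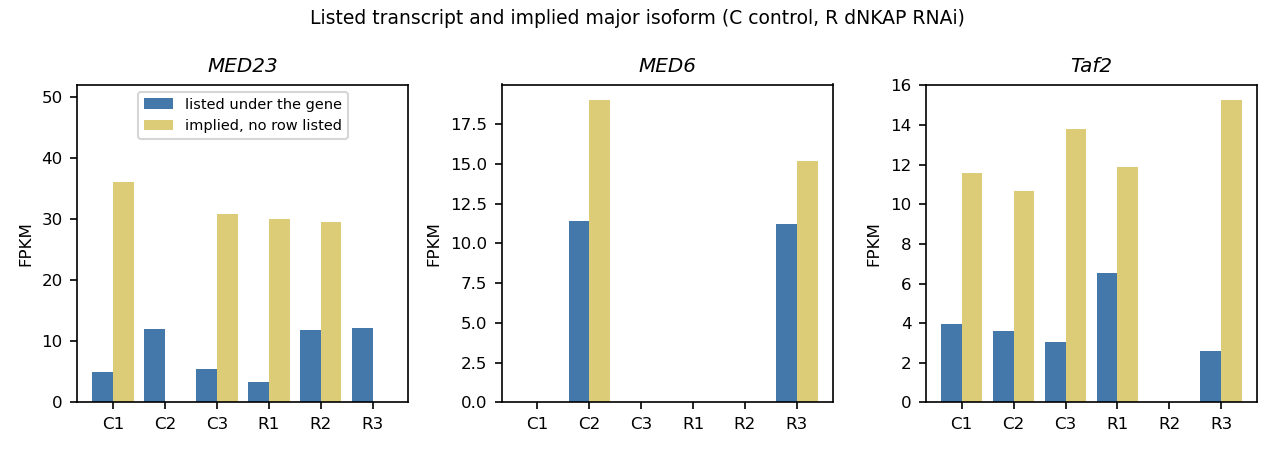
FPKM listed under MED23, MED6 and Taf2 (blue) and the FPKM of a major isoform implied by the listed percentage where no row reached 100% (yellow), in control (C) and dNKAP RNAi (R) libraries 1 to 3. The implied major isoform of MED23 lay between 29.5 and 36.0 FPKM in 4 libraries. In control replicate 2 and RNAi replicate 3 a row at 100% was listed in that locus, but not under MED23.

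Partners of these complexes outside the naming rule were tested in the same fit. Of 5 further Mediator genes, the kinase module genes kto, skd, Cdk8 and CycC and the tail gene ix, none was called. The median log2 change of the 5 was -0.10. The kinase module gene kto was the flattest, at 38.6 ± 0.513 and 38.8 ± 0.533 FPKM (SD, n = 3 each; log2 change 0.01, limma adjusted p = 0.958). Its partner skd averaged 25.6 and 30.4 FPKM, higher in all 3 RNAi libraries (log2 change 0.24, limma adjusted p = 0.297), and Cdk8 averaged 15.6 and 13.1 FPKM, lower in all 3 (log2 change -0.24, limma adjusted p = 0.266). Of Tbp, Trf and Trf2 none was called, and Tbp had 30.0 FPKM in control replicate 3, against 0 in the other 5 libraries.

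Of 15 tested general transcription factor genes 1 was called higher, beside 3.21% of all tested genes, so the count is not by itself a result. That gene was hay, the TFIIH helicase XPB. It was at 16.2, 15.3 and 18.9 FPKM in the controls and at 27.4, 27.8 and 30.6 FPKM with the RNAi, with no overlap, and stood 0.76 higher in log2 units (SE 0.10; limma adjusted p = 0.0219). The call of hay was lost without any 1 of the libraries other than control replicate 3, at limma adjusted p values up to 0.0796. The median log2 change of the 15 genes was 0.04. Of 10 tested RNA polymerase II subunit genes none was called, and the catalytic subunit gene Polr2A came closest at 78.6 ± 5.29 and 99.2 ± 3.50 FPKM (SD, n = 3 each; log2 change 0.34, limma adjusted p = 0.0711). None of 13 tested pausing and elongation genes and neither NC2alpha nor Hel89B, which act in the removal and reuse of the TATA-binding protein, was called. The median log2 changes were 0.05 for the polymerase genes and 0.04 for the pausing and elongation genes.

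SAGA uses some Tafs beside its own subunits, and its genes were listed together with those of the related ATAC complex. Of the 23 tested genes 2 were called higher, beside 3.21% of all tested genes, and their median log2 change was 0.07. A count this small is not by itself a result about these complexes. Gcn5, their acetyltransferase, was at 27.4, 26.8 and 29.6 FPKM in the controls and at 43.5, 45.7 and 45.8 FPKM with the RNAi, with no overlap. The log2 change of Gcn5 was 0.68 (SE 0.06, limma adjusted p = 0.00621). Ada2b, the SAGA adaptor that holds Gcn5, was at 16.3, 17.6 and 18.2 FPKM in the controls. With the RNAi it was at 27.8, 28.7 and 25.1 FPKM, 0.63 higher in log2 units (SE 0.08, limma adjusted p = 0.0196). The locus of Ada2b lacked a row for its major isoform in at least 1 library. Whether that isoform belongs to Ada2b was not tested, so, as for MED23, the group means of Ada2b cannot be read as gene levels. The call of Gcn5 held without any 1 library, at limma adjusted p values up to 0.0342, and that of Ada2b was lost without any 1 of the libraries other than RNAi replicate 3, at up to 0.0787. The difference between the changes of Gcn5 or Ada2b and those of the shared Taf genes was not tested.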

How the data were processed

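Per the labels' protocols, Trizol was used to isolate total RNA of wing discs, and an Illumina NextSeq read the libraries. The authors deposited 1 transcript table per library with FPKM and its bounds, and a coverage signal used for depth; per the file headers the layout is that of Cuffcompare. The submitters' processing notes name FastQC, HTSeq and DESeq and the build dm6; the program behind the FPKM values is not given in the sources used here, and no counts were used. FPKM was summed per gene over class codes =, c, j and o, and 149 older gene identifiers were replaced through their transcripts. Groups and replicate numbers came from the titles. Genes that averaged 1 FPKM or more were tested with limma 3.58.1 (trend) on log2(FPKM + 0.5), two-sided, in R 4.3.3, with Benjamini-Hochberg adjustment. Transcript usage was tested with diffSplice. On simulated data with 5511 genes, the share of changed genes recovered was 37.3% at 1.5-fold, 62.7% at 2-fold and 83.3% at 4-fold. Of the calls there, 4.69% were false. The simulation drew normal values for genes above 0 in every library. It left out the 995 tested genes listed at 0 in at least 1 library, so these shares do not cover them. Gene positions and exons came from Ensembl BDGP6 (dm6).

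The genes and lists were chosen with earlier results of these data known; ix was added to its list, and kto, Pex5, slx1, colt, MED17 and the genes of an unlisted major isoform were singled out, after values were seen. Values in every library are given for called genes, for the 6 genes with the smallest p in each direction, for genes at 0 in some libraries, for the most and least abundant genes and for paralogs. Tfb5 had no match. The sum of marker genes was also taken over the libraries for salivary gland (23.5 to 108 FPKM), blood cells (3.43 to 18.6), muscle (55.4 to 80.3), trachea (16.0 to 42.6), neurons (0.587 to 4.50), testis (at most 0.191) and eye and leg discs (40.6 to 57.7). Alternatives were pseudocounts, filters, scaling, exact matches, left-out libraries, the replicate block and, added after seeing the data, genes whose major isoform is listed in every library.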

Additional observations from a re-analysis of the deposited data

How the results depend on the processing

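Over all genes, 209 were called higher and 33 lower; lower calls numbered 60 with no filter, 62 with quantile normalization (beside 187 higher), 58 with median-ratio scaling (beside 202 higher) and 59 among genes above 0 in every library. Leaving out 1 library gave 126 to 159 higher calls, the fewest without RNAi replicate 1. The deviations of libraries from their group means correlated at 0.017, 0.0683 and 0.0642 for the same replicate number. For different numbers they correlated at -0.1163 to 0.055, so whether the numbers pair the libraries is not settled. The replicate block gave 72 higher and 5 lower calls, with no Mediator or Taf gene called. In that fit the limma adjusted p was 0.208 for Taf10 and 0.134 for dNKAP. The block also ended the calls of hay (limma adjusted p = 0.0695), Gcn5 (0.0699) and Ada2b (0.143). Taf10 was also not called among exact matches only (limma adjusted p = 0.0721) or without any 1 library, so the count of lower genes was then 0; its log2 change was -0.36 under both the exact matches and the block. dNKAP lost its call without control replicates 1 or 3 or RNAi replicate 2, at log2 changes of -0.83 to -0.92.

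Small changes turned sign: MED1 to -0.10 and Taf4 to -1.92 with exact matches only, and MED20 to -0.064 and Taf8 to -0.025 with quantile normalization. Without 1 library the log2 change ranged from -0.060 to 0.20 for MED20, from -0.065 to 0.037 for MED22, from -1.53 to 1.52 for MED6, from -1.69 to 0.22 for Taf2 and from -0.13 to 0.34 for Taf4. Medians moved to -0.17 (Mediator genes outside the rule) and -0.028 (general transcription factors) with quantile normalization and to -0.051 (elongation genes) with exact matches; without 1 library they ranged from -0.15 to -0.0029 for the first and from -0.039 to 0.052 for the second. Usage calls numbered 24 with a minimum of 5 FPKM, none of them a Mediator or Taf gene, and 65 to 80 without 1 library. The cause of these moves was not tested. Depth is known only as bases, and the deposited bounds span a median of 7.47 to 8.81% either side of values between 10 and 50 FPKM.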

Other observations

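Outside the summed classes, Taf3 had 1 row in control replicate 2 that the tables class as lying next to the annotated transcript (class p), at 1.63 FPKM, close to the 1.57 FPKM of Taf3 itself in that library. Newly assembled isoforms were listed in every library for Taf4 and MED14, and in some libraries for MED1, MED11, MED23, MED26 and Taf3. For MED14 they made up between 23.3% and 68.3% of the gene's FPKM while its summed level stayed between 27.7 and 31.5 FPKM. For MED11 a single new isoform appeared in RNAi replicate 3 alone, at 63.4% of the gene's FPKM.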
